A study of Mus musculus with 2 samples.

Results

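The genes described here are the cyclins and cyclin-dependent kinases (CDKs) of mouse embryonic stem (ES) cells. They are the 43 genes, of 21937 in the authors' deposited table, whose symbol is Ccn with a letter and at most a single digit, or Cdk with a number and at most a single letter. The set holds 24 cyclins and 19 kinases, and all 43 had reads, as did 18759 genes of the table. The cells were wild type ES cells of strain 129Sv-C57Bl/6, and the series asks what Top2a activity does for transcription. One group was exposed to ICRF-193, a catalytic inhibitor of topoisomerase II, at 500 nM during 16 h, and the control group to DMSO. Each group has 3 libraries made from total RNA of cells kept without feeders. The labels do not say whether the replicates were separate cultures, so the p-values reflect the spread among these libraries alone, which may be technical.

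Cyclins are regulatory subunits that bind and switch on CDKs, and many of them are named for the phase in which their protein accumulates. D-type cyclins with Cdk4 and Cdk6 act in G1, E-type cyclins with Cdk2 at entry into S phase, A-type cyclins with Cdk2 and Cdk1 in S and G2, and B-type cyclins with Cdk1 in mitosis. Other pairs act on RNA polymerase II: cyclin H with Cdk7 in the general factor TFIIH, cyclin T with Cdk9 in the elongation factor P-TEFb, cyclin K with Cdk12 and Cdk13, and cyclin C with Cdk8 and Cdk19 in the Mediator complex. ES cells have a short G1 phase and keep cyclin E and Cdk2 activity through much of the cycle, and cyclin G1 is a transcriptional target of p53.

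Levels are normalised reads, in which each library's reads are divided by its own size factor. The deposited table gives them as a mean per group. The reads of each library were worked back from those means, and the libraries of a group were named A, B and C by decreasing size factor, a name that carries no replicate number. Recovered totals ran from 27279587 to 43702793 reads per library. All 10 ES cell markers had reads in every library, with a summed level of 167694 to 192336 in DMSO and 111356 to 130615 in ICRF-193. With a limma-voom term for the split of libraries described next, all 10 were called lower, beside 32.6% of all genes in that fit. Of the 10, Zfp42 and Lin28a fell in the authors' deposited table, by 0.99 and 0.81 on the log2 scale (adjusted p = 0.00186 and 0.017, DESeq). Libraries A of both groups stood apart in the summed level of 12 fibroblast and feeder markers. It reached 43508 in library A of DMSO, with 6363 and 7534 in its B and C. In ICRF-193 it was 54106 in library A, with 10842 and 9907 in its B and C. Acta2 and Col1a1 held most of these sums, at 22938.5 and 12908.4 in library A of DMSO and 30478 and 15180.3 in that of ICRF-193. Not all 12 were higher in libraries A. Thy1 was lower there, at 185 against 281 and 311 in DMSO and at 353 against 380.5 and 469 in ICRF-193. Dcn was lower in library A of DMSO only, at 8.76 against 12.9 and 15.1. None of the 12 was called in the deposited test (DESeq, 1 at an unadjusted p under 0.05) or in limma-voom, and none was at 0 in all libraries, although Lum had no reads in most of them. With the term for the split, 6 of 11 tested were called higher in ICRF-193 and none lower, beside 27.1% and 32.6% of all genes. The split was not limited to fibroblast and feeder markers, and it went both ways. Of the ES cell markers in DMSO, Esrrb was at 19651.9 in library A against 11171.4 and 8890, and Utf1 at 13134.5 against 21695 and 23255.9. In ICRF-193 Esrrb was at 11793.5 against 6754 and 6037, and Utf1 at 10204.5 against 13888.5 and 15483.1. What the split reflects was not tested. Its part in the values of cyclins and CDKs was not tested either, and members in which libraries A differ most are also given without both of them. The labels describe no sorting by cell cycle phase, and in bulk RNA fewer cells of a phase and less RNA per cell cannot be told apart.

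In the authors' deposited table, Ccng1 and Ccna1 rose, Cdk6 fell and the other 40 members did not pass an adjusted p under 0.05 (DESeq, adjusted over all 18759 genes with reads). How many members were called depended on whether the split of libraries A was part of the fit, as given below. The 3 called members were 6.98% of the 43, beside 7.23% of all genes tested (5.97% higher and 1.26% lower), a share near that background. At an unadjusted p under 0.05 the deposited test held 7 members, 16.3% of the set, beside 16.9% of all genes. The deposited log2 fold change was below 0 in 30 of the 43 (69.8%) and above 0 in 13, with a median of -0.17 for the set, -0.13 for cyclins and -0.26 for kinases. Over all genes, 49.4% lay below 0 and the median was 0.01. Most members are abundant, and among the 11638 genes at 100 or more normalised reads in DMSO 62.2% lay below 0, the median was -0.11 and 6.62% were called.

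**Figure D1:**
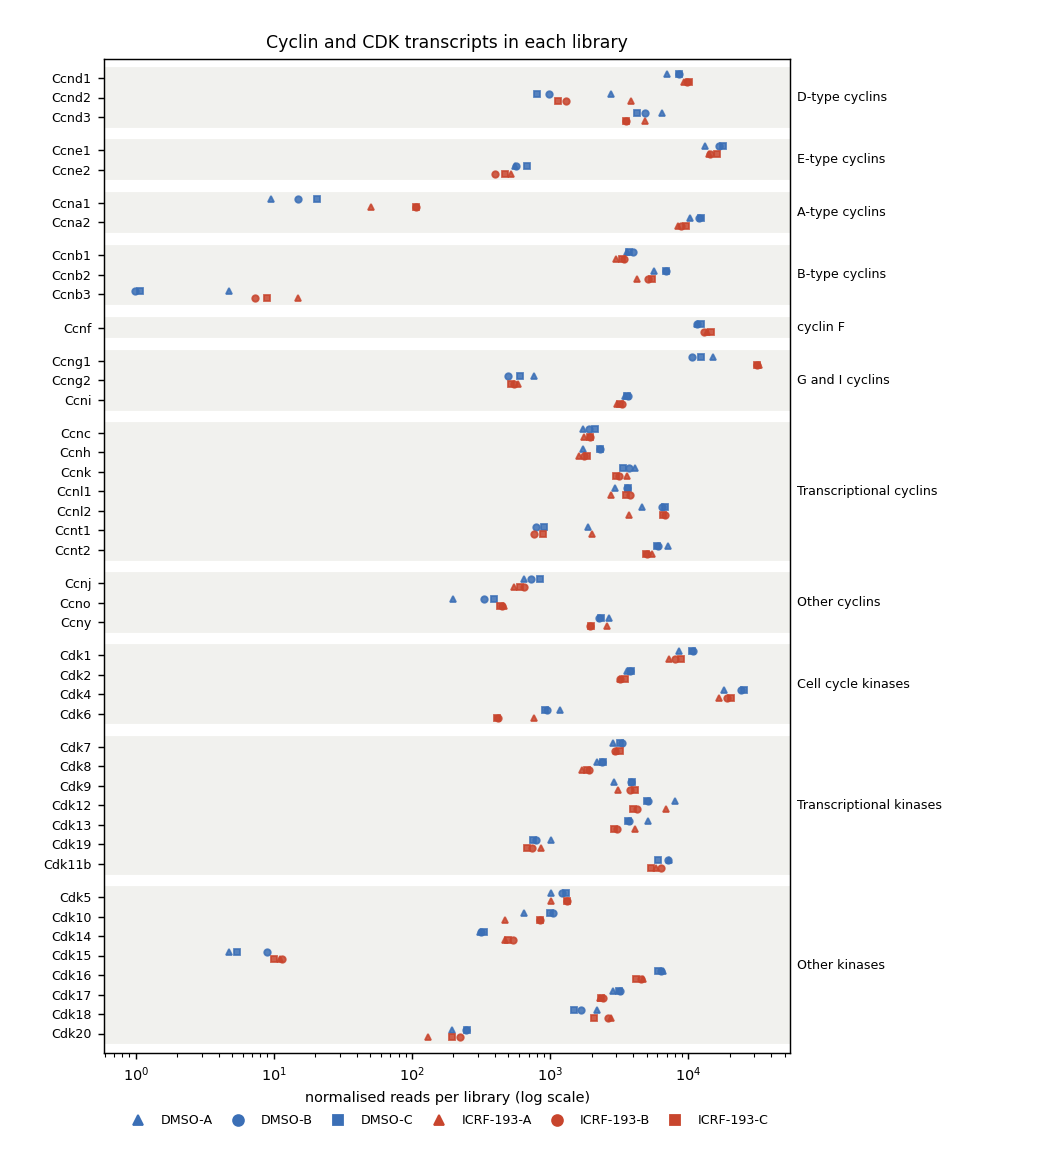
Normalised reads (x axis, log scale) of the 43 members in each of the 6 libraries, grouped by role; blue marks are DMSO, red marks ICRF-193, and triangles, circles and squares are libraries A, B and C. The marks of Ccng1, Ccna1 and Cdk6 are separated by colour, while in Ccnd2 and Ccnt1 the triangles of both colours lie to the right of the other marks.

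The recovered reads allowed a second test with limma-voom, on the 41 members that had 10 reads or more in 3 libraries or more. Ccnb3 and Cdk15 did not reach that level. Ccng1, Ccna1 and Cdk14 were called higher and Cdk6, Cdk16 and Cdk17 lower, 14.6% of the 41 beside 15.7% of all 14984 genes (9.76% higher and 5.95% lower). When libraries were scaled by their total reads, the all-gene median shifted up by 0.12 on the log2 scale, and the calls among members then were 4 higher and 1 lower. Without 1 library the 6 calls became 12 (without DMSO-A), 5 (without ICRF-193-A), 2 (without DMSO-C) or 1 (without DMSO-B, ICRF-193-B or ICRF-193-C). With a term for the split of libraries A from B and C, 8 members were called higher and 23 lower, 75.6% beside 59.7% of all genes (27.1% higher and 32.6% lower), a fit used below as that with the library A term. That fit with total read scaling called 10 higher and 12 lower (56.0% of all genes, 35.4% higher and 20.6% lower), and limma-voom without both libraries A called 7 higher and 21 lower (53.9% of all genes, 24.1% higher and 29.8% lower). The median log2 fold change of the members was -0.19 in limma-voom and -0.06 with total read scaling. The 3 DMSO and 3 ICRF-193 libraries did not overlap in 6 members that were higher and 12 that were lower, of the 41, beside 18.7% and 18.8% of all genes.

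**Figure D2:**
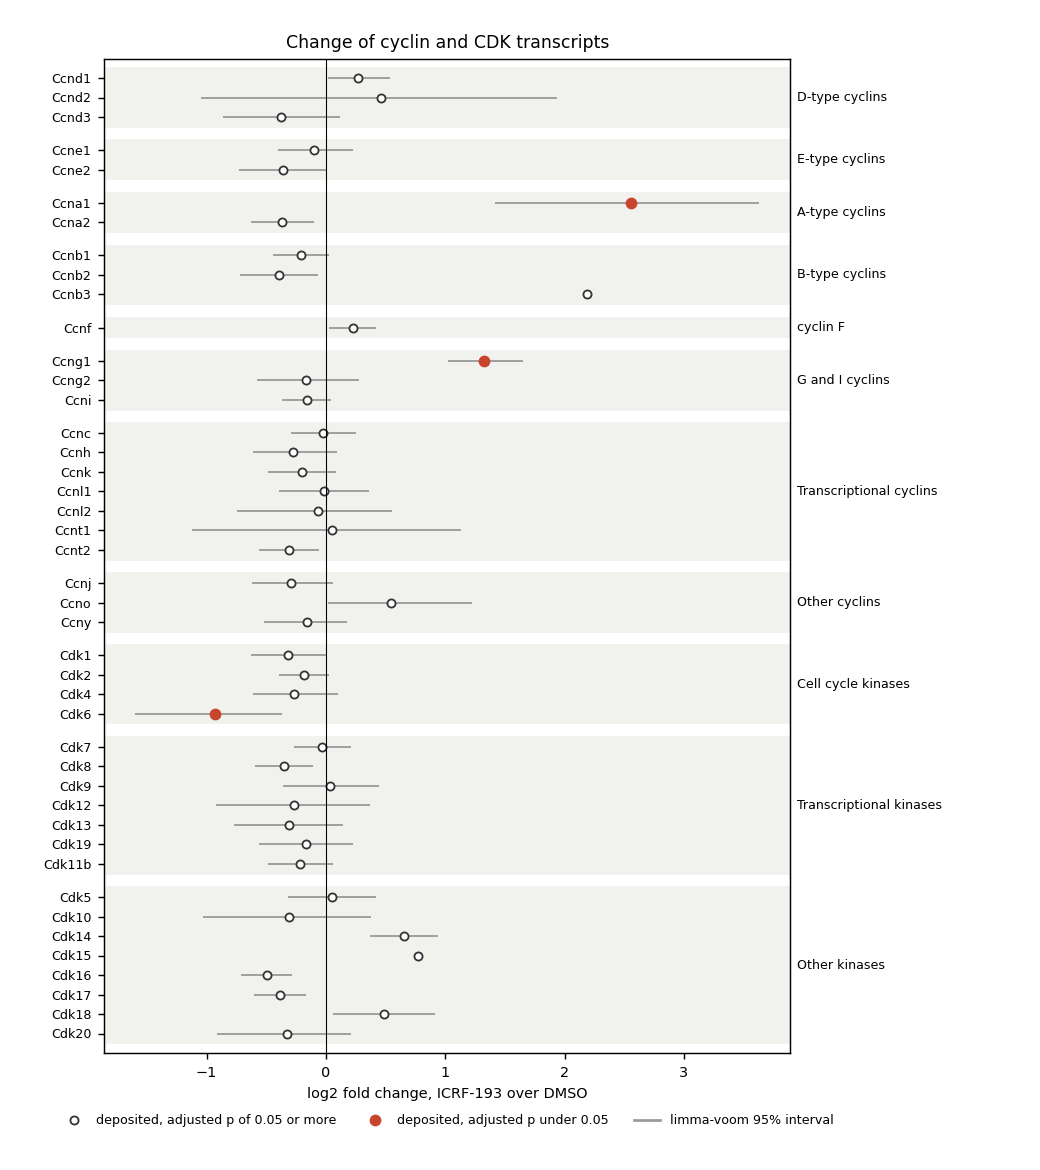
Log2 fold change of ICRF-193 over DMSO (x axis) for the 43 members; points are the deposited values, filled red where the adjusted p was under 0.05, and lines are 95% intervals of limma-voom, absent for Ccnb3 and Cdk15. Ccna1 at 2.56, Ccng1 at 1.33 and Cdk6 at -0.93 are filled, and most other points lie slightly left of 0.

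The D-type cyclins, the G1 partners of Cdk4 and Cdk6, had none of 3 members called in the deposited test (DESeq, and 0 at an unadjusted p under 0.05) or in limma-voom, and they did not share a direction. Ccnd1 was at 7048, 8587 and 8633 normalised reads in DMSO and at 9327, 9793 and 10167 in ICRF-193, each time in the order of libraries A, B and C that is used from here on. Every ICRF-193 library was above every DMSO library. Its log2 fold change was 0.27 in the authors' deposited table (adjusted p = 0.658, DESeq), and the adjusted p was 0.136 in limma-voom and 0.000973 with the library A term. Ccnd2 was at 2777, 980 and 806 normalised reads in the DMSO libraries and at 3842, 1306 and 1147 in the ICRF-193 libraries. The library A of each group was 3.11 and 3.13 times the mean of its B and C, and the groups overlapped. These are also the libraries with the high summed level of fibroblast and feeder markers, which was not their only difference from B and C. The authors' deposited table gave Ccnd2 a log2 fold change of 0.46 (adjusted p = 0.959, DESeq), and the fit with the library A term gave 0.46 ± 0.08 (SE, limma-voom, adjusted p = 0.000432). Without both libraries A limma-voom gave Ccnd2 0.46 ± 0.11 (SE, adjusted p = 0.00443). Ccnd3 was at 6509, 4854 and 4235 normalised reads in DMSO and at 4902, 3529 and 3578 in ICRF-193. ICRF-193-A overlapped the DMSO range, while within pair A and within pairs B and C the ICRF-193 libraries were lower, by -0.41 and -0.35 on the log2 scale. The deposited log2 fold change of Ccnd3 in the authors' table was -0.38 (adjusted p = 0.479, DESeq), and limma-voom gave an adjusted p of 0.258, or 0.000299 with the library A term.

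The E-type cyclins drive entry into S phase through Cdk2, and neither of the pair was called in the deposited test (DESeq, and 0 at an unadjusted p under 0.05) or in limma-voom. Ccne1 was at 13334, 16663 and 17907 normalised reads in DMSO and at 14180, 14418 and 16142 in ICRF-193. The groups overlapped, and the log2 fold change was -0.10 in the authors' deposited table (adjusted p = 0.988, DESeq). Its direction was not stable, since limma-voom gave -0.09 and, with total read scaling, 0.0358, while without both libraries A it was called lower, at -0.18 (limma-voom, adjusted p = 0.0458). Ccne2 was at 556, 566 and 682 normalised reads in DMSO and at 525, 402 and 475 in ICRF-193. The highest ICRF-193 library lay below the lowest DMSO library, and the authors' deposited table gave -0.36 on the log2 scale (adjusted p = 0.563, DESeq). In limma-voom the adjusted p for Ccne2 was 0.161, and 0.0225 with the library A term.

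Of the A-type cyclins, Ccna1 rose and Ccna2 was not called. Ccna1 encodes cyclin A1, known for its role in the meiosis of male germ cells, while cyclin A2 is the form that dividing somatic cells use in S and G2. Ccna1 had 12, 15 and 19 reads in the DMSO libraries and 50, 104 and 95 in the ICRF-193 libraries, or 9.55, 14.9 and 20.5 against 50.2, 107.8 and 106.6 normalised reads. All ICRF-193 libraries were above all DMSO libraries, and in both groups library A was the lowest. The fold change in the authors' deposited table was 5.89, or 2.56 on the log2 scale (adjusted p = 0.000503, DESeq). Limma-voom gave 2.52 ± 0.46 (SE, adjusted p = 0.0173), and the call was lost without DMSO-B, ICRF-193-B or ICRF-193-C (adjusted p = 0.0736, 0.0723 and 0.0666). Pair A gave 2.39 and pairs B and C 2.60 on the log2 scale, and limma-voom without both libraries A gave 2.59 ± 0.28 (SE, adjusted p = 3.28e-05). Even after the rise the level was low: 48.2 ± 18.01 normalised reads per kb of exon in ICRF-193, against 2482 ± 184 for Ccna2 (SD, n = 3). An antisense gene overlaps an exon of Ccna1 in the GENCODE annotation, and the sources used here do not say whether counting used strand.

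The promoter of Ccna1 is shown because it is the member with the largest deposited fold change. The RefSeq window runs from 250 bases before to 50 bases after the start site (chr3:55055006-55055305, minus strand, GRCm38.p6) and is printed 5′ to 3′, with capitals for the CCAAT box and the GC box core GGCGG, read here on the other strand as ATTGG and CCGCC.
Ccna1: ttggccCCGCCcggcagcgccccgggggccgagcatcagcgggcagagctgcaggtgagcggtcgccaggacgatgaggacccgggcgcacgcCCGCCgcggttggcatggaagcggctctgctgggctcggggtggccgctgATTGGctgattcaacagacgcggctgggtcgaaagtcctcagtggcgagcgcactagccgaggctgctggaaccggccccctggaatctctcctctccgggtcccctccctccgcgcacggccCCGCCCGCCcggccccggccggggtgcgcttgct
It holds 1 CCAAT box, 107 to 103 bases before the start, 4 GC box cores and no match to the CHR element TTTGAA that marks many genes of G2 and mitosis.

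Ccna2 was at 10304, 12066 and 12461 normalised reads in DMSO and at 8423, 8852 and 9734 in ICRF-193. Each ICRF-193 library was below each DMSO library, with a gap between the ranges smaller than the SD of either group. The authors' deposited table gave -0.37 on the log2 scale (adjusted p = 0.513, DESeq), and limma-voom gave -0.36 ± 0.11 (SE, adjusted p = 0.0718). With the library A term the adjusted p was 0.000155. Ccna2 shares exonic bases with Exosc9, a protein-coding gene on the opposite strand. In all, 14 members have an exon that overlaps a gene on the opposite strand. In 6 of these it is a protein-coding gene: Ccnd1, Ccnd3, Ccne2, Ccna2, Ccnc and Cdk4. Whether reads of the other gene entered their levels was not tested.

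The B-type cyclins Ccnb1 and Ccnb2, the mitotic partners of Cdk1, were not called and were lower in every library, and the third, Ccnb3, was near the detection limit. Ccnb1 was at 3595, 3969 and 3706 normalised reads in DMSO and at 2986, 3429 and 3341 in ICRF-193. The ranges did not overlap, and the log2 fold change in the authors' deposited table was -0.21 (adjusted p = 0.81, DESeq; 0.197 in limma-voom and 0.00568 with the library A term). Ccnb2 was at 5657, 6951 and 6921 normalised reads in DMSO and at 4264, 5109 and 5503 in ICRF-193. Its ranges did not overlap either, with -0.39 in the authors' deposited table (adjusted p = 0.462, DESeq; 0.104 in limma-voom and 5.94e-05 with the library A term). Ccnb3, a cyclin of germ cells and meiosis, had 6, 1 and 1 reads in DMSO and 15, 7 and 8 in ICRF-193. Its deposited log2 fold change in the authors' table of 2.19 rests on those few reads and was not called (adjusted p = 0.19, DESeq).

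Cdk1, the kinase of the B-type cyclins, was at 8562, 10830 and 10729 normalised reads in DMSO and at 7273, 7986 and 8879 in ICRF-193. ICRF-193-C overlapped DMSO-A, and the authors' deposited table gave -0.32 (adjusted p = 0.612, DESeq). In limma-voom the adjusted p for Cdk1 was 0.157, and 0.000493 with the library A term. Ccnb1, Ccnb2 and Cdk1 are commonly transcribed together in G2, through CCAAT boxes bound by NF-Y and the CHR element. Their proximal RefSeq windows, from 120 bases before to 50 bases after the start site, are shown to compare how these motifs are laid out. They lie at chr13:100786437-100786606, chr9:70421505-70421674 and chr10:69352863-69353032, all on the minus strand of GRCm38.p6. Capitals mark CCAAT boxes (ATTGG on the other strand) and the CHR element TTTGAA.
Ccnb1: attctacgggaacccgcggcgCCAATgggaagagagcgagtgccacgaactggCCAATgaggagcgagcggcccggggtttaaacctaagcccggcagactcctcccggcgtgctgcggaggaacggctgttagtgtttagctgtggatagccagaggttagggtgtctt
Ccnb2: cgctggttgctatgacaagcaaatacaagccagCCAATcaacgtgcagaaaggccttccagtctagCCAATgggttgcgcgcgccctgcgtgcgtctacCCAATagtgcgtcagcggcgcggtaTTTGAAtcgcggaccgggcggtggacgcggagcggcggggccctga
Cdk1: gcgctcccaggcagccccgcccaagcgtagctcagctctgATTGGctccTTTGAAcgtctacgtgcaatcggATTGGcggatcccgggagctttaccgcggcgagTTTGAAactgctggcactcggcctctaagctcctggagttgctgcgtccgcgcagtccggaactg
The full windows hold 2 CCAAT boxes in Ccnb1, 3 in Ccnb2 and 3 in Cdk1. They hold the CHR sequence TTTGAA 2 times each in Ccnb2 and Cdk1 but not in Ccnb1. Variants of this sequence were not searched, so a CHR element of another form in Ccnb1 would have been missed. The element of Cdk1 nearest to the start lies 15 to 10 bases before it.

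Cyclin F, the substrate receptor of an SCF ubiquitin ligase rather than a CDK activator, had a sign opposite to that of Ccna2, Ccnb1 and Ccnb2. Ccnf was at 11645, 11523 and 12297 normalised reads in DMSO and at 13818, 13056 and 14573 in ICRF-193. The ICRF-193 libraries were all higher, although the deposited log2 fold change in the authors' table of 0.22 was not called (adjusted p = 0.771, DESeq). Limma-voom gave an adjusted p of 0.119, and 0.00395 with the library A term. Its promoter window has 2 CCAAT boxes and 2 CHR elements, as many of the latter as those of Ccnb2 and Cdk1. Whether Ccnf differed from Ccna2, Ccnb1 and Ccnb2 was not tested.

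Cyclin G1, which recruits the phosphatase PP2A to Mdm2 and is induced by p53, had the smallest adjusted p of the members. Ccng1 was at 15026, 10637 and 12444 normalised reads in DMSO and at 32719, 31543 and 31386 in ICRF-193. The lowest ICRF-193 library lay far above the highest DMSO library, and the spread within ICRF-193 was small: 31883 ± 729 against 12702 ± 2206 (SD, n = 3). The authors' deposited table gave a fold change of 2.51, or 1.33 on the log2 scale (adjusted p = 5.8e-06, DESeq). Limma-voom gave 1.34 ± 0.13 (SE, adjusted p = 0.00309), and the call held without any single library, with adjusted p from 0.00218 to 0.0291. Pair A gave 1.12 and pairs B and C 1.45. On a per kb scale Ccng1 went from the fourth level among the 43 members in DMSO, 3617 ± 628 normalised reads per kb, to 9078 ± 208 in ICRF-193, beside 9147 ± 858 for Cdk4 and 7457 ± 535 for Ccne1 (SD, n = 3).

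The promoter of Ccng1 is shown for its p53 site. The RefSeq window (chr11:40755237-40755536, minus strand, GRCm38.p6; 250 bases before to 50 after the start) has in capitals a match to the p53 consensus of 20 bases without a spacer.
Ccng1: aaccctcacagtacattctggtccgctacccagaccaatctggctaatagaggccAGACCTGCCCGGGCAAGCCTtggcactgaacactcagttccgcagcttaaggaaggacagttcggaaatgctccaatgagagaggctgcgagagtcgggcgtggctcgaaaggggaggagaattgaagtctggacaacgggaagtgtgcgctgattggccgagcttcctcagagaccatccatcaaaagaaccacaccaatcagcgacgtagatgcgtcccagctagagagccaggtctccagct
The match, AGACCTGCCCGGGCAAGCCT at chr11:40755462-40755481, has 1 mismatch and lies 195 to 176 bases before the start. It was the only such match in the 36 windows found for 34 of the 43 members (2.78%), where 29 of all 32851 RefSeq windows hold a match with at most 1 mismatch (0.0883%).

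Its relative Ccng2, a gene of the FOXO response and of cell cycle arrest, was not called. Ccng2 was at 761, 497 and 605 normalised reads in DMSO and at 588, 553 and 521 in ICRF-193, which lie within the DMSO range. The authors' deposited table gave -0.17 (adjusted p = 0.86, DESeq). Ccni, an atypical cyclin, was at 3488, 3687 and 3585 normalised reads in DMSO and at 3071, 3328 and 3219 in ICRF-193. Its groups did not overlap, and the deposited log2 fold change in the authors' table was -0.16 (adjusted p = 0.884, DESeq; 0.243 in limma-voom and 0.0154 with the library A term).

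**Figure D3:**
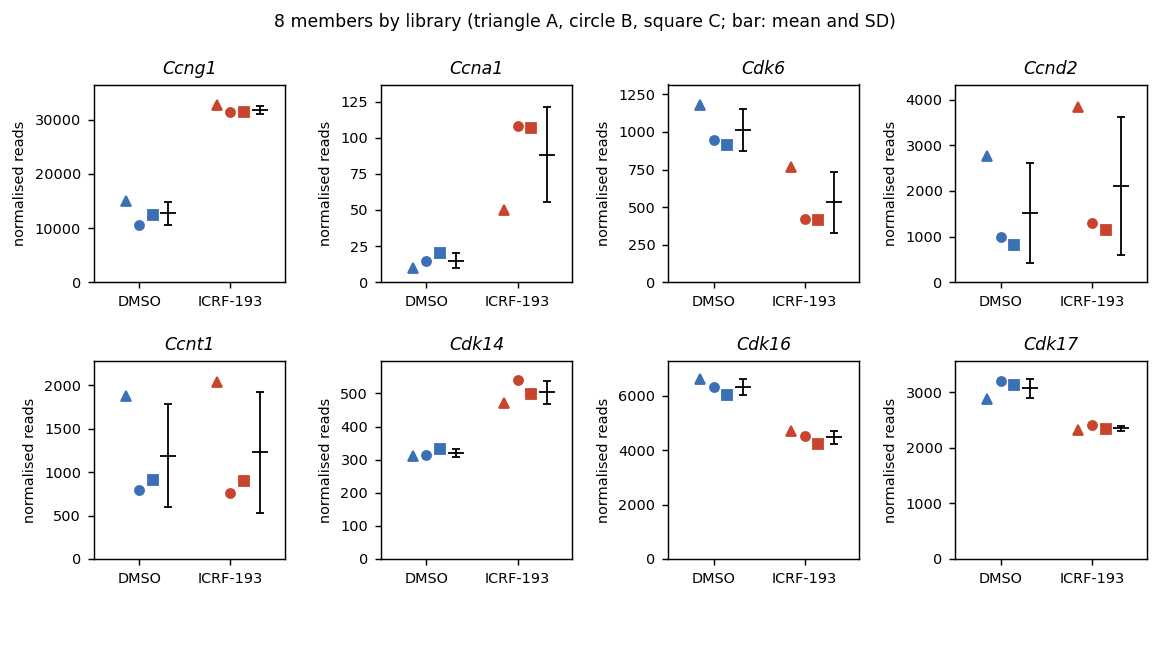
Normalised reads (y axis, from 0) of 8 members in each library; triangles, circles and squares are libraries A, B and C, and bars are the mean and SD of 3 libraries. Ccng1, Ccna1 and Cdk14 are higher and Cdk6, Cdk16 and Cdk17 lower in all ICRF-193 libraries, while in Ccnd2 and Ccnt1 libraries A differ from B and C more than the groups differ.

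The 7 transcriptional cyclins had no member called in the deposited test (DESeq, and 0 at an unadjusted p under 0.05) or in limma-voom, and their median log2 fold change in the authors' deposited table was -0.06 (in limma-voom -0.10, and 0.03 with total read scaling). Of these, Ccnt2 had the largest deposited difference. This cyclin T2, a partner of Cdk9 in P-TEFb, was at 7167, 6079 and 5959 normalised reads in DMSO and at 5458, 5050 and 4977 in ICRF-193. The groups did not overlap, and the authors' deposited table gave -0.31 (adjusted p = 0.58, DESeq; 0.0993 in limma-voom and 0.00033 with the library A term). Ccnt1, the other T cyclin, was at 1873, 789 and 906 normalised reads in DMSO and at 2031, 760 and 896 in ICRF-193. It tracked the library and not the group: libraries A were 2.21 and 2.45 times the mean of B and C, and the deposited log2 fold change in the authors' table was 0.05 (adjusted p = 1, DESeq). Without both libraries A it was -0.035 in limma-voom.

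Cyclin H, the Cdk7 partner in TFIIH and in the kinase that activates other CDKs, was at 1728, 2301 and 2316 normalised reads in DMSO and at 1626, 1753 and 1849 in ICRF-193. The ranges of Ccnh overlapped through DMSO-A, with -0.28 in the authors' deposited table (adjusted p = 0.714, DESeq; 0.00543 in limma-voom with the library A term). Ccnk, the partner of Cdk12 and Cdk13, was at 4146, 3702 and 3393 normalised reads in DMSO and at 3593, 3160 and 3019 in ICRF-193. These ranges overlapped as well, and the authors' deposited table gave -0.20 (adjusted p = 0.801, DESeq; 0.00792 in limma-voom with the library A term). For the last 3 the differences were small: Ccnc of Mediator was at -0.03, and Ccnl1 and Ccnl2, cyclins linked to Cdk11 and splicing, at -0.01 and -0.06 in the authors' deposited table (adjusted p = 1 for each, DESeq). All of these turned positive with total read scaling.

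Of the other cyclins, Ccno had the largest difference. Cyclin O, needed for the centriole amplification of multiciliated cells, was at 199, 330 and 392 normalised reads in DMSO and at 462, 448 and 433 in ICRF-193. The groups did not overlap, and DMSO-A was the lowest library. The authors' deposited table gave 0.54 (unadjusted p = 0.0232, adjusted p = 0.185, DESeq), and limma-voom 0.62 ± 0.25 (SE, adjusted p = 0.147). With the library A term Ccno was called higher, at 0.59 ± 0.16 (SE, limma-voom, adjusted p = 0.00938). Without both libraries A the value was 0.30 (limma-voom, adjusted p = 0.0537). Ccnj had a deposited value of -0.29 and Ccny, a cyclin of the cell membrane that pairs with Cdk14 and Cdk16, -0.16 in the authors' table (adjusted p = 0.697 and 0.877, DESeq; 0.0126 and 0.0306 in limma-voom with the library A term).

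All 4 kinases of the cell cycle were lower in the authors' deposited table and under each scaling run, with a median log2 fold change of -0.29, and Cdk6 was the only one called. Cdk6, a G1 kinase of the D-type cyclins, was at 1176, 945 and 916 normalised reads in DMSO and at 764, 418 and 413 in ICRF-193. Every ICRF-193 library was below every DMSO library, and library A was the highest in each group. The deposited fold change in the authors' table was 0.525, or -0.93 on the log2 scale (adjusted p = 0.0117, DESeq). Limma-voom gave -0.98 ± 0.26 (SE, adjusted p = 0.0481), close to the threshold. It missed the threshold with total read scaling (0.0604), upper quartile scaling (0.0587) and no filter (0.0511), and without DMSO-A (0.0706), DMSO-B (0.129), DMSO-C (0.105), ICRF-193-B (0.177) or ICRF-193-C (0.161). An antisense gene overlaps an exon of Cdk6 as well. Pair A differed by -0.62 and the mean of pairs B and C by -1.16, and with the library A term the adjusted p was 3.37e-05. On a per kb scale Cdk6 was far below Cdk4, at 87.8 ± 12.3 against 10991 ± 1818 normalised reads per kb in DMSO (SD, n = 3).

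The RefSeq promoter window of Cdk6 is shown as that of the only member called lower in the deposited test (chr5:3343643-3343942, plus strand, GRCm38.p6; 250 bases before to 50 after the start). It has no capitals, since it holds none of the motifs searched.
Cdk6: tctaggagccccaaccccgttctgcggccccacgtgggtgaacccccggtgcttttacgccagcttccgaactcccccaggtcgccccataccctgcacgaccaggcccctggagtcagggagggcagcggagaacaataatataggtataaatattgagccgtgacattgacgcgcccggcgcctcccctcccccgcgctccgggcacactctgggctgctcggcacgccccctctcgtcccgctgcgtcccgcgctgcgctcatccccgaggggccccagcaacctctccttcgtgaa
Only 2 other members with a window lacked the GC box core GGCGG in every window, Ccng1 and Cdk20.

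Cdk4, the other G1 kinase, had the highest level per kb of all members in DMSO. It was at 18313, 24073 and 25305 normalised reads in DMSO and at 16858, 19164 and 20318 in ICRF-193. The groups overlapped through DMSO-A, and the authors' deposited table gave -0.26 (adjusted p = 0.734, DESeq; 0.00181 in limma-voom with the library A term). Cdk4 shares exonic bases with Tspan31 on the opposite strand. Cdk2, the kinase of cyclins E and A, was at 3614, 3811 and 3859 normalised reads in DMSO and at 3238, 3193 and 3479 in ICRF-193. The ranges of Cdk2 did not overlap, although the difference was small, at -0.19 in the authors' deposited table (adjusted p = 0.847, DESeq; 0.0103 in limma-voom with the library A term).

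None of the 7 kinases that act on transcription was called in the deposited test (DESeq, and 0 at an unadjusted p under 0.05) or in limma-voom, and the median of their deposited log2 fold changes in the authors' table was -0.21. Cdk8, a Mediator kinase, was at 2179, 2384 and 2412 normalised reads in DMSO and at 1700, 1914 and 1849 in ICRF-193. Its groups did not overlap, with -0.35 in the authors' deposited table (adjusted p = 0.544, DESeq; 0.0614 in limma-voom and 0.000234 with the library A term). Cdk19, the paralog of Cdk8, had -0.17 in the same deposited table of the authors (adjusted p = 0.853, DESeq). Of the kinases of elongation, Cdk12 had -0.27, Cdk13 -0.31 and Cdk9 0.03 in the authors' deposited table (adjusted p = 0.822, 0.568 and 1, DESeq). Cdk12 was at 8026, 5145 and 5054 normalised reads in DMSO and at 6871, 4286 and 4009 in ICRF-193, so that libraries A of both groups were above all others. Without both libraries A limma-voom gave -0.30 ± 0.06 for Cdk12 (SE, adjusted p = 0.00259). Cdk7 had -0.03 and Cdk11b -0.21 in the authors' deposited table (adjusted p = 1 and 0.783, DESeq). With the library A term 4 of the 7 were called lower in limma-voom and 0 higher, beside 32.6% and 27.1% of all genes. The 57.1% called in either direction is near the 59.7% of all genes called in that fit. The 4 were Cdk8, Cdk12, Cdk13 and Cdk11b, the last 3 with adjusted p = 0.000804, 0.000297 and 0.0313 (limma-voom).

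Of the 8 other kinases, 7 were tested in limma-voom and 3 of these were called (42.9%, beside 15.7% of all genes). None of the 8 was called in the deposited test (DESeq, beside 7.23% of all genes). At an unadjusted p under 0.05 that test held 2 of them (25.0%, beside 16.9% of all genes). Cdk16 and Cdk17, kinases of the PCTAIRE family, were lower, and Cdk14, of the related PFTAIRE family and a partner of cyclin Y in Wnt signalling, was higher. Cdk16 was at 6611, 6319 and 6044 normalised reads in DMSO and at 4695, 4525 and 4221 in ICRF-193. The groups were well separated, and the authors' deposited table gave -0.50 (unadjusted p = 0.0378, adjusted p = 0.251, DESeq; 0.016 in limma-voom). Cdk17 was at 2876, 3205 and 3139 normalised reads in DMSO and at 2320, 2409 and 2336 in ICRF-193. They too did not overlap, with -0.38 in the authors' deposited table (adjusted p = 0.481, DESeq; 0.037 in limma-voom). Cdk14 was at 310, 314 and 333 normalised reads in DMSO and at 472, 541 and 497 in ICRF-193. This was the only kinase with a limma-voom call upward, at 0.66 in the authors' deposited table (unadjusted p = 0.0109, adjusted p = 0.111, DESeq; 0.0169 in limma-voom).

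The limma-voom calls of these 3 kinases depended on the libraries kept. Those of Cdk14 and Cdk16 were lost without DMSO-B (adjusted p = 0.0879 and 0.0804), DMSO-C (0.062 and 0.0542), ICRF-193-B (0.0922 and 0.0848) or ICRF-193-C (0.0819 and 0.0859). Cdk17 lost its call without any single library other than DMSO-A, with adjusted p from 0.078 to 0.155, and with total read or upper quartile scaling (0.152 and 0.0697). With the library A term all 3 passed (adjusted p = 0.000108 for Cdk14, 1.36e-05 for Cdk16 and 0.000134 for Cdk17). The third PCTAIRE kinase, Cdk18, had the opposite sign: 2173, 1682 and 1502 normalised reads in DMSO and 2781, 2615 and 2090 in ICRF-193. Its groups overlapped, and the authors' deposited table gave 0.48 (adjusted p = 0.323, DESeq; 0.117 in limma-voom and 0.000752 with the library A term). The remaining kinases were not called in the deposited test: Cdk5, the neuronal CDK, was at 0.05, Cdk10 at -0.31 and Cdk20 at -0.33 in the authors' deposited table (adjusted p = 1, 0.783 and 0.675, DESeq). With the library A term Cdk10 and Cdk20 were called lower (limma-voom, adjusted p = 0.00314 and 0.0316), and without both libraries A Cdk10 was at -0.27 (adjusted p = 0.0183). Cdk15 had 5 to 9 reads in DMSO and 9 to 11 in ICRF-193, too few to test in limma-voom.

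Ratios of related members within a library do not depend on how libraries are scaled. For 6 ratios, the difference of group means was tested with an exact two-sided permutation test over 3 against 3 libraries, which cannot go below p = 0.1. The log2 ratio of Ccng1 to Ccng2 was 4.30, 4.42 and 4.36 in the DMSO libraries and 5.80, 5.83 and 5.91 in the ICRF-193 libraries. This was the only ratio without overlap, a difference of 1.49 (exact p = 0.1, 0.3 after Benjamini-Hochberg adjustment over the 6). It rests on the same reads as the limma-voom call of Ccng1 and is not separate support for it. The ratio of Ccnd1 to Ccnd3 was 0.66 ± 0.48 in DMSO and 1.30 ± 0.32 in ICRF-193 on the log2 scale (SD, n = 3; exact p = 0.2, adjusted 0.3). That of Cdk4 to Cdk6 was 4.47 ± 0.45 and 5.20 ± 0.64 (SD, n = 3; exact p = 0.3, adjusted 0.36). In both of these ratios the library A of each group was the lowest. Differences were smaller for Ccne1 to Ccne2 (0.28), Ccnb1 to Ccna2 (0.16) and Cdk8 to Cdk19 (-0.19), with exact p = 0.2, 0.2 and 0.5 (adjusted 0.3, 0.3 and 0.5). Without both libraries A none of the 6 ratios overlapped between the groups, with 2 libraries left in each.

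**Figure D4:**
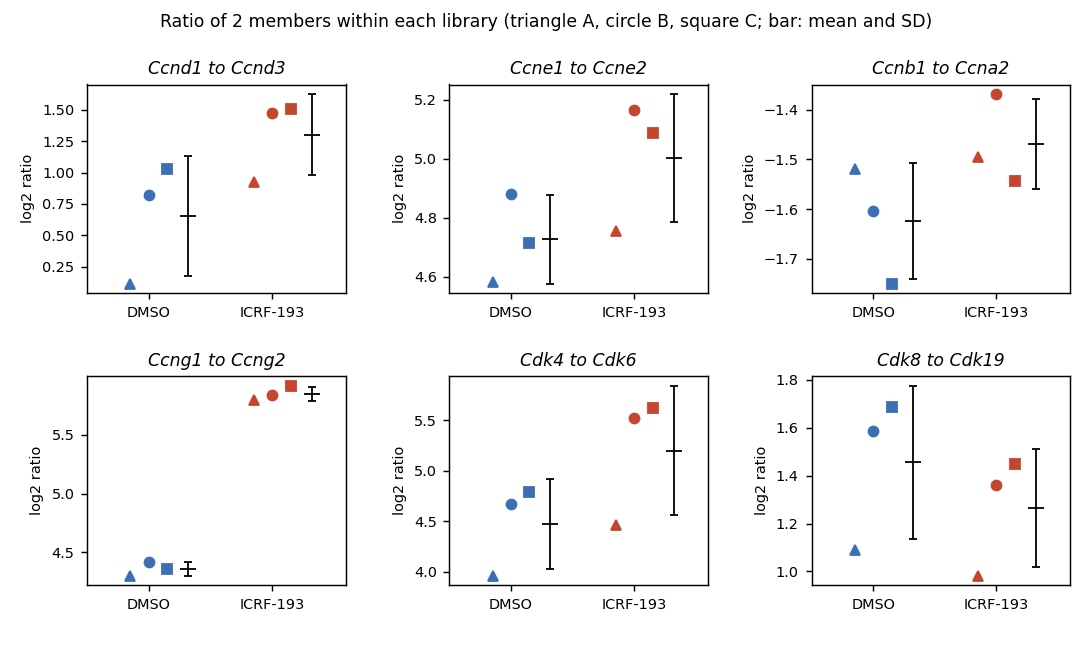
Log2 ratio of 2 members within each library (y axis, a separate range per panel) for 6 pairs; triangles, circles and squares are libraries A, B and C, and bars are the mean and SD of 3 libraries. Only the ratio of Ccng1 to Ccng2, near 4.36 in DMSO and 5.85 in ICRF-193, is free of overlap.

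The order of levels among members, in normalised reads per kb of exon, was led in DMSO by Cdk4 (10991 ± 1818) and Ccne1 (7984 ± 1182), whose spreads are small against the gap to the next, Ccnb2 (4252 ± 482). Ccng1 (3617 ± 628) and Ccna2 (3201 ± 317) followed, which differ by less than the spread of Ccng1, and then Ccnf (2860 ± 101). Ccnd1 (2163 ± 241) and Ccnd3 (2125 ± 480) were alike, and both were above Ccnd2 (227 ± 163). Among the E-type cyclins, Ccne1 stood far above Ccne2 (188 ± 22). At the low end were Ccna1 (8.20 ± 3.00), Cdk15 (3.02 ± 1.06) and Ccnb3 (0.50 ± 0.47); all values are mean ± SD of 3 libraries.

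Across the promoter windows, 17 of the 36 held a CCAAT box (47.2%, beside 37.4% of all windows), 5 the CHR element TTTGAA (13.9% beside 17.9%), 32 the GC box core GGCGG (88.9% beside 48.8%) and 5 the E2F core CGCGAA (13.9% beside 4.09%). Both strands were searched, and matches of different motifs may overlap. The CHR element was found in Ccnb2, Cdk1, Ccnf, Ccni and Cdk16, and the E2F core in Cdk1, Ccnf, Ccnb3, Cdk7 and Cdk8. None of Ccna1, Ccng1 and Cdk6, the members called in the deposited test, had either of these. A match describes letters in the window and not a bound site.

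Other genes of the pathway were read from 10 lists, which together hold 123 measured genes, of which 14 rose and 4 fell in the authors' deposited table (adjusted p under 0.05, DESeq; 5.97% and 1.26% of all genes). The lists were described by counts and medians, without a test of the list. The p53 target list, which leaves out Ccng1 but holds Ccng2, held most of the rises: 12 of 21 rose and none fell, with a median log2 fold change of 0.77 beside 0.01 for all genes. In the authors' deposited table these were Trp73 at 3.50, Fas at 2.44, Perp at 2.21, Btg2 at 2.14, Mdm2 at 2.14, Plk2 at 1.96, Trp53inp1 at 1.87, Cdkn1a at 1.57, Phlda3 at 1.40, Pmaip1 at 0.94, Plk3 at 0.77 and Gtse1 at 0.74 on the log2 scale. The deposited value of Ccng1 in the authors' table, 1.33, lies between those of Phlda3 and Pmaip1. In limma-voom 13 of the 20 targets tested were called higher and 1 lower, beside 9.76% and 5.95% of all genes. The lower one was Rrm2b, at -0.74 (limma-voom, adjusted p = 0.0265).

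The CDK inhibitors moved in opposite directions. Cdkn1a, which encodes p21 and is on the p53 list too, was at 3285, 1677 and 1776 normalised reads in DMSO and at 7371, 6281 and 6391 in ICRF-193. It rose 2.98-fold in the authors' deposited table (adjusted p = 8.56e-08, DESeq). Cdkn1b, which encodes p27, was at 1427, 2126 and 2229 normalised reads in DMSO and at 722, 990 and 1153 in ICRF-193. It fell to 0.495 of the DMSO mean in the authors' deposited table (adjusted p = 0.0114, DESeq). The other 6 inhibitors were not called, and the median of the 8 was 0.30.

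Among the substrates and regulators of cyclin-CDK pairs, the retinoblastoma and E2F list had 1 of 13 higher and 1 lower. Rb1, the main substrate of the D-type cyclin kinases, rose by 1.55 and its relative Rbl1 (p107) was at -0.996 on the log2 scale in the authors' deposited table (adjusted p = 1.39e-07 and 0.00188, DESeq). Of 21 genes of the ubiquitin ligases that degrade cyclins, Fbxo5, an inhibitor of the anaphase-promoting complex, was the only one called, at -0.87 (adjusted p = 0.00799), and of 10 transcription factors of G2 genes only Mybl2, at -0.77 (adjusted p = 0.0186), both in the authors' deposited table. The 10 genes for CDK phosphorylation and CKS subunits had none called in the deposited test (DESeq, and 0 at an unadjusted p under 0.05), 1 called lower in limma-voom, and a median of -0.22.

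Lists around the transcriptional kinases held no call: none of 4 in the Mediator kinase module (median -0.27), none of 12 P-TEFb regulators (-0.19) and none of 8 TFIIH subunits (-0.16) in the authors' deposited table (DESeq; 0, 1 and 0 at an unadjusted p under 0.05). In limma-voom those 3 lists had 0, 1 and 0 calls, the call being a lower value. With the library A term 3 of 4, 8 of 12 and 5 of 8 were called, in a fit that called 59.7% of all genes. Of 18 other CDK activators and cyclin-like genes, Cdkl1 rose by 1.04 (adjusted p = 0.0469, DESeq, the authors' deposited table), and the median was -0.18.

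**Figure D5:**
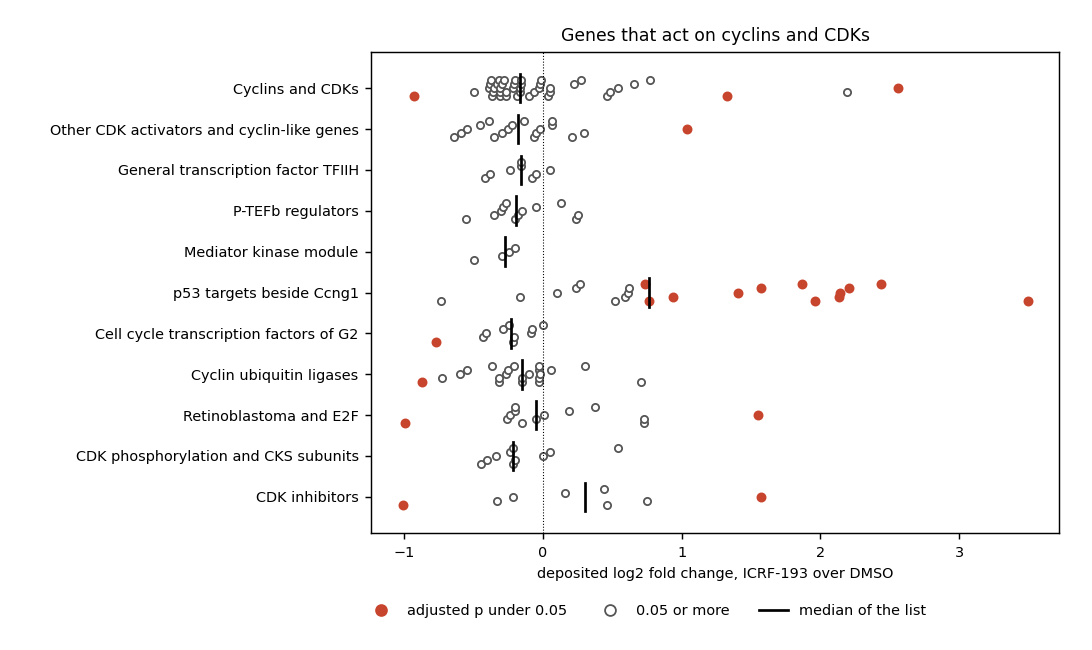
Deposited log2 fold change (x axis) of the 43 members and of the genes of 10 pathway lists; each point is a gene, filled red where the adjusted p was under 0.05, and vertical bars are list medians. The points of the p53 targets lie mostly right of 0, with a median of 0.77, while the medians of the other lists lie between -0.27 and 0.30.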

How the data were processed

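Messenger RNA of 2 groups (DMSO and ICRF-193, 3 libraries each) was compared for 43 genes. The members and gene lists were chosen with earlier results of these data known. Every member was to be named, with library values for the D, E, A and B cyclins, Ccng1 and members called; of the pathway lists, the genes called.

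The submitters' processing notes name TopHat, HTSeq, DESeq and the mouse build mm9; versions, settings, annotation and strand are not given in the sources used here. Each deposited group mean is a signal, reads over size factors averaged by the authors across 3 libraries. The deposited fold change is a ratio of those means and its log2 is unshrunken. The p-values are deposited with and without adjustment; recomputing their Benjamini-Hochberg adjustment over 18759 genes differed by at most 2.55e-15. This deposited test is the main result.

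Group means with 15 significant digits were resolved into whole reads of 3 libraries: 18205 genes had a single solution, 511 were taken at a posterior of at least 0.99 (Ccna2, Ccne1, Ccnf, Ccng1 and Cdk4 among them), and 43 genes of high level, with Mdm2, stayed unresolved and have no SD. In simulated reads all 7764 single and 380 posterior solutions were exact. Size factors recomputed from the reads differed by at most 0.0394%.

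Recovered reads were tested with limma-voom (R 4.3.3, limma 3.58.1) for the 14984 genes that had 10 reads or more in 3 libraries or more, with and without a term for libraries A. Tested on simulated data (14871 genes), the fit without it found 0 of 67 genes changed by 0.5, 8 of 67 by 1 and 52 of 65 by 2 on the log2 scale, without false calls. Adding the term raised this to 58 of 67, 67 of 67 and 65 of 65, and to 14 false calls. Simulated libraries A shifted alike in both groups, as that term assumes. The spread between simulated libraries was set in advance, and few of the 14871 genes were changed. In the real reads the fit with the term called 59.7% of all genes, so the simulated counts cannot give its error rate there. Ratios used exact permutation tests (scipy 1.17.1). Exon lengths and overlaps came from GENCODE and promoters from RefSeq, both on GRCm38, and no coordinates were carried over to mm9. The alternatives were thresholds, scalings, filters and libraries left out. Depth ran from 27279587 to 43702793 reads per library, without the unresolved genes; counting error is part of the spread between libraries.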

Additional observations from a re-analysis of the deposited data

How the results depend on the processing

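No paired analysis was possible because the deposited columns carry no replicate numbers; the library A term and the pairs named A, B and C follow size factors only. The deposited test called 3 members at 0.05 and at 0.1. Limma-voom called 6, 5 with total read scaling or no filter, 4 with upper quartile scaling, and 6 at 50 or more reads; with the library A term 31, without both libraries A 28, and with the library A term and total read scaling, chosen after seeing the data, 22. Leaving out 1 library gave 1 to 12. The library A term too was defined from these data, since libraries A are known only from the recovered size factors. The pathway lists had 18 calls of 123 in the deposited test (7.23% of all genes) and 28 of 118 at 50 or more reads. Of 121 tested, 84 were called with the library A term, beside 59.7% of all genes. Without both libraries A 75 were called (53.9% of all genes), and with that term and total read scaling 68 (56.0% of all genes). Without 1 library 9 to 36 were called. Ratios without overlap numbered 1, 6 without both libraries A, and 1 to 4 without 1 library; fewer libraries make overlap less likely. Ccng1 was called in every alternative run. Limma-voom values changed sign for some members, and the cause was not tested. These members were called neither in the deposited test nor in limma-voom on all libraries without the library A term. Some of them were called in other runs, such as Ccnd2 with the library A term and Ccne1 without both libraries A. With total read scaling, and with that scaling and the library A term, Ccne1 was at 0.0358 and 0.032, Ccnc at 0.104 and 0.101, Ccnl1 at 0.107 and 0.105, Ccnl2 at 0.0272 and 0.0302, and Cdk7 at 0.097 and 0.0942. With upper quartile scaling Ccnc was at 0.0488, Ccnl1 at 0.0524 and Cdk7 at 0.0419. Without both libraries A, Ccnl1 was at 0.0134, Ccnl2 at 0.0162 and Ccnt1 at -0.035. Leaving out 1 library gave -0.11 to 1.02 for Ccnd2, -0.301 to 0.0161 for Ccng2, -0.0961 to 0.0483 for Ccnc, -0.12 to 0.12 for Ccnl1, -0.27 to 0.19 for Ccnl2, -0.44 to 0.40 for Ccnt1, -0.0915 to 0.0127 for Cdk7, -0.107 to 0.16 for Cdk9 and -0.0541 to 0.172 for Cdk5. The simulated data had few changed genes and a spread between libraries that was set in advance. There the limma-voom fit without the library A term found none of the smallest changes and the fit with it most of them. How either fit performs on the real reads was not tested, and the deposited test was not simulated.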

Other observations

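In 6 members library A differed from B and C in the same direction in both groups, by more than 1.5 times either way. Besides Ccnd2, Ccnt1, Cdk12 and Ccna1, these were Ccnb3 and Cdk10. Cdk10, a kinase that pairs with cyclin M, had 654, 1047 and 1000 normalised reads in the DMSO libraries and 473, 850 and 852 in the ICRF-193 libraries, in the order A, B and C. Ccnl2, a cyclin linked to splicing, had 4659, 6504 and 6781 in DMSO and 3723, 6846 and 6585 in ICRF-193; its library A passed that ratio in ICRF-193 only.

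Markers of other cell types were read in the same way, and their part in the results of cyclins and CDKs was not tested. Of 8 neural markers 2 rose and 1 fell in the authors' deposited table, where Neurog2 was at 5.01, Neurod1 at 1.37 and Pax6 at -1.52 on the log2 scale. The summed level of the 8 was 8371 to 11047 normalised reads in DMSO and 11220 to 14952 in ICRF-193. With the library A term 4 of 7 tested neural markers were called higher and 2 lower, beside 27.1% and 32.6% of all genes. Of 8 trophectoderm markers only Krt18 was called in the authors' deposited table, at 0.77, and the median of the list was 0.85. With the library A term all 7 tested were called higher, beside 27.1% of all genes. The summed level of the list was 17870 to 19850 in DMSO and 25638 to 36428 in ICRF-193. None of 8 endoderm markers was called in the deposited test (DESeq, and 0 at an unadjusted p under 0.05) or in limma-voom. With the library A term 2 of 7 tested were called higher and none lower, beside 27.1% and 32.6% of all genes. Their summed level too was highest in libraries A. In the order A, B and C it was 19716, 9831 and 11493 in DMSO and 21539, 13914.5 and 13756 in ICRF-193. No marker of these 3 lists was at 0 in all libraries.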
